A study of Danio rerio with 6 samples.

Results

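The parvalbumin genes of the zebrafish, *pvalb1* to *pvalb9*, were followed by symbol through RNA-seq counts of whole 6 dpf larvae. All 9 symbols had a row among the 15336 genes listed, 7 of them passed the filter on low counts, and *pvalb6* and *pvalb7* had 0 counts in every library. The study compared wild-type larvae of the TL strain (TL controls, 3 libraries) with *panx1a*-/- larvae of the same strain (3 libraries), in which TALENs had introduced a small frameshifting deletion into *panx1a*, the gene of an ATP-permeable membrane channel. The *panx1a*-/- larvae descend from a single founder fish, no group was treated, and the number of larvae behind a library is not given in the sources used here. The question addressed here is how the transcripts of muscle and of neuronal parvalbumins differ between these genotypes.

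Parvalbumins are small cytosolic proteins of the EF-hand family that bind calcium ions. In fast skeletal muscle fibres they take up calcium released for a contraction and so speed relaxation, before the calcium pump returns the ion to the sarcoplasmic reticulum. In the nervous system they buffer calcium in rapidly firing neurons, and in zebrafish *pvalb7* is a standard marker of cerebellar Purkinje cells. *pvalb8* and *pvalb9* carry the older symbols *ocma* and *ocmb* in the RefSeq annotation, after oncomodulin, a parvalbumin known in mammals from cochlear outer hair cells. The forms *pvalb1* to *pvalb4* are treated below as muscle forms and *pvalb5* to *pvalb9* as the other forms. This grouping comes from general knowledge and was not derived from the counts.

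Gene rows summed to 17349457 to 21472044 reads per TL control and to 13054759 to 17776115 per *panx1a*-/- library. Markers of skeletal muscle, neurons, photoreceptors, liver, exocrine pancreas and epidermis had counts in all libraries, as a whole larva should give. For *panx1a* itself, 110, 114 and 147 reads were counted in TL controls against 22, 17 and 13 in *panx1a*-/- larvae. The share of uniquely aligned reads that matched no gene feature moved with genotype, at 30.2% to 42.9% in TL and 48.4% to 59.4% in *panx1a*-/- libraries. Nothing in the labels says that libraries came from separate clutches, and p-values measure the spread between these libraries, which may be partly technical.

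Most tested parvalbumins were lower in *panx1a*-/- larvae. Of the 7 tested genes, *pvalb2*, *pvalb4*, *pvalb5* and *pvalb8* (4 genes) were downregulated in edgeR's quasi-likelihood test, with p-values adjusted after Benjamini-Hochberg and a threshold of 0.05, and so were 11.8% of all tested genes. *pvalb1* and *pvalb3* had negative log2 fold changes that did not pass the test, and *pvalb9* had a positive one that did not pass either. limma-voom also called 4 members downregulated (11.8% of all genes), and DESeq2 and edgeR's exact test called 6 (14.5% and 17.5% of all genes). Upregulated members numbered 0 in the quasi-likelihood test and in limma-voom (9.88% and 10.4% of all genes), and 1 in DESeq2 and in edgeR's exact test (14.2% and 13.3% of all genes). Without adjustment, 6 members were below 0.05 with a negative and 1 with a positive log2 fold change, as were 23.6% and 20.0% of all genes. For 5 of the 7 members, as for 47.5% of all genes, every library of a genotype lay on the same side of the other genotype. The median log2 fold change of the 7 genes was −1.66, against −0.06 over all 12797 genes tested. The calls rest on few libraries: without TL replicate 2, TL replicate 3, *panx1a*-/- replicate 1 or *panx1a*-/- replicate 3, 0 parvalbumins passed the quasi-likelihood test, with 4 to 7 of them at an unadjusted p-value below 0.05. Over all genes these same fits called 142, 3, 19 and 4 genes, in that order, which is 1.1%, 0.0233%, 0.146% and 0.0308%. Without TL replicate 1, 7 members passed (36.4% of all genes), and without *panx1a*-/- replicate 2, 4 passed (28.2% of all genes). With the share of reads outside genes as a covariate, a fit chosen after seeing the data, 0 parvalbumins passed in either direction or had an unadjusted p-value below 0.05, and 1 gene, or 0.00781%, was called over all genes (581 at an unadjusted p-value below 0.05). As whole larvae were sequenced, fewer cells of a type and less RNA per cell cannot be told apart.

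**Figure D1:**
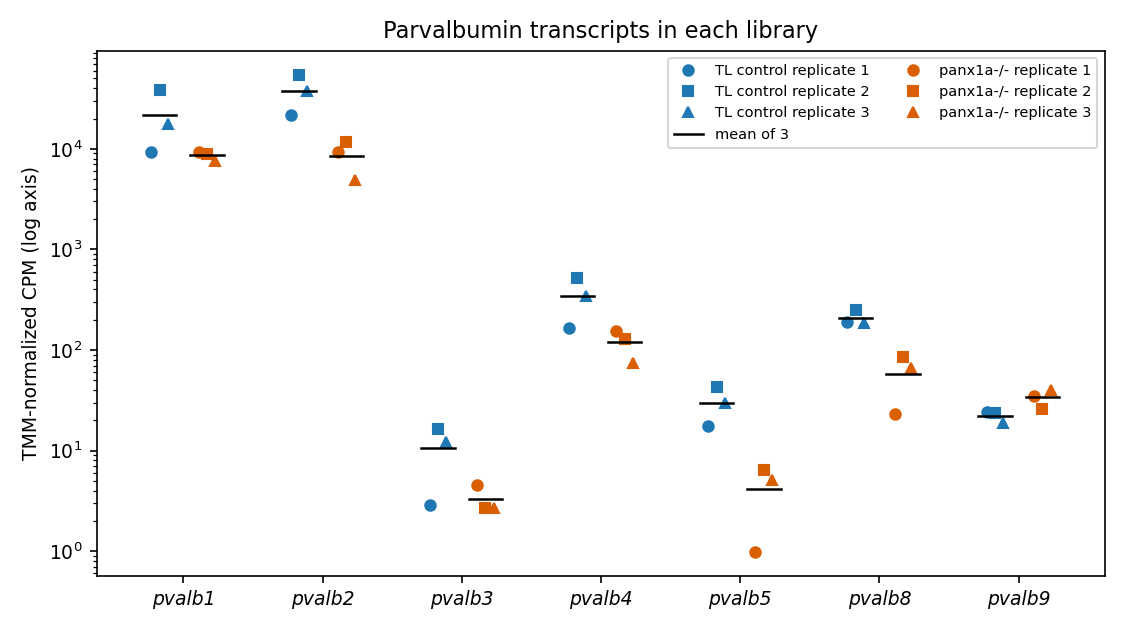
TMM-normalized CPM (log axis) of the 7 tested parvalbumins in the 3 TL control and 3 *panx1a*-/- libraries, with 1 symbol per replicate number and a black line at the mean of 3. The genotypes do not overlap for *pvalb2*, *pvalb4*, *pvalb5*, *pvalb8* and *pvalb9*, whereas *pvalb1* and *pvalb3* of TL control replicate 1 lie among the *panx1a*-/- values.

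The muscle form *pvalb2* had 21585, 54623 and 37246 CPM in TL controls 1, 2 and 3, and 9223, 11562 and 4932 CPM in *panx1a*-/- libraries 1, 2 and 3, in CPM, counts scaled to the TMM-normalized library size. Every TL control was above every *panx1a*-/- library, as in 24.1% of all tested genes. The mean fell from 37818 ± 16527 CPM in TL to 8572 ± 3363 CPM (SD, 3 libraries each). The log2 fold change was −2.14 ± 0.43 (SE) with an adjusted p of 0.0287 in edgeR's test. On the linear scale the TL mean was 4.41 times the *panx1a*-/- mean. Only 1.54% of all tested genes had a log2 fold change as low as that of *pvalb2* or lower.

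*pvalb1*, the second muscle form with high counts, had 9324, 38041 and 17744 CPM in TL controls and 9393, 8956 and 7626 CPM in *panx1a*-/- libraries. The *panx1a*-/- libraries were close to each other, with a highest value 1.23 times the lowest, whereas the TL controls spread 4.08-fold. TL control 1 lay within the *panx1a*-/- range, so the genotypes overlapped. The log2 fold change of *pvalb1* was −1.33 (standard error 0.47), and its adjusted p was 0.0700 in edgeR's test. DESeq2 and edgeR's exact test, which put it below the threshold, gave adjusted p-values of 0.0190 and 0.0249. Without TL control 2, the library with the highest value, its log2 fold change was −0.65 (adjusted p = 0.170), and without TL control 1 it was −1.68 (adjusted p = 0.0152). With the share of reads outside genes as a covariate it was 0.47.

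*pvalb4* is a further form of muscle, and its counts were far above the level where counting error matters. It had 165, 515 and 345 CPM in TL controls and 154, 130 and 74.7 CPM in *panx1a*-/- libraries. The groups did not overlap, but TL control 1 was only slightly above *panx1a*-/- replicate 1. The mean fell from 342 ± 175 CPM in TL to 120 ± 40.7 CPM (SD, 3 libraries each). The log2 fold change was −1.52 ± 0.44 (SE) with an adjusted p of 0.0465 in edgeR's test. This call was the one nearest to the threshold among the 4, and it was lost with library size as the only scaling (adjusted p = 0.0577), where 4.74% of all genes were downregulated. With the share of reads outside genes as a covariate the log2 fold change of *pvalb4* was 0.47.

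*pvalb3* was measured on few reads, with 53, 273 and 235 reads in TL controls and 78, 51 and 39 in *panx1a*-/- libraries. After normalization these were 2.90, 16.5 and 12.1 CPM against 4.52, 2.71 and 2.71 CPM. TL control 1 again lay inside the *panx1a*-/- range, and the other TL controls lay above it. The log2 fold change was −1.66 (standard error 0.58), and its adjusted p was 0.0714 in edgeR's test. Without TL control 1 it was −2.10 (adjusted p = 0.00716), without TL control 2 it was −1.18 (adjusted p = 0.207), and it passed in none of the other 4 fits with a library left out. With the share of reads outside genes as a covariate it was 0.96.

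**Figure D2:**
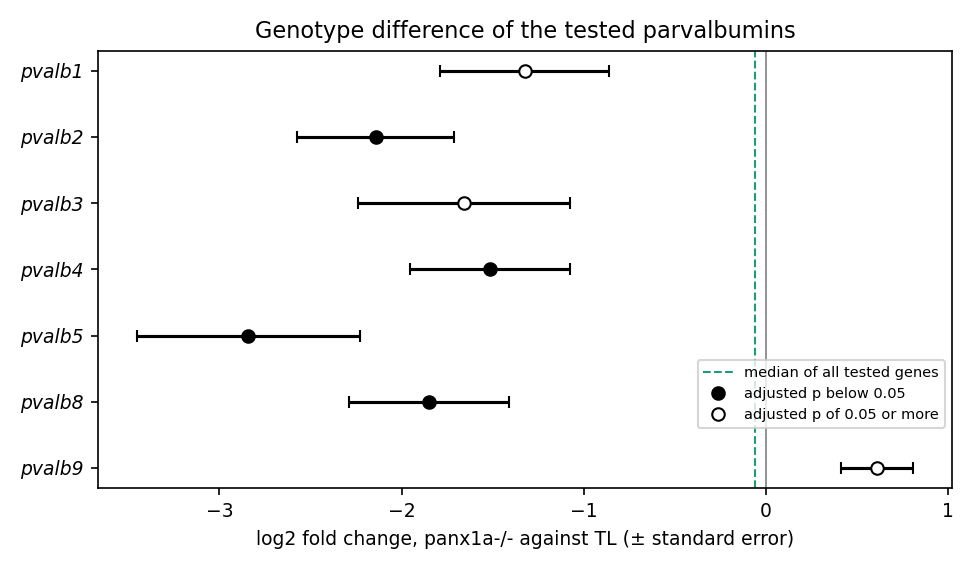
Log2 fold change of *panx1a*-/- against TL (x axis, bars: standard error) for each tested parvalbumin, with filled points where the adjusted p-value was below 0.05 and a dashed line at the median of all tested genes. *pvalb5* lies farthest to the left at −2.84, and *pvalb9* is the one gene right of 0, at 0.61.

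Outside the muscle forms, *pvalb5* had the lowest log2 fold change of the family. It had 17.7, 42.5 and 29.9 CPM in TL controls and 0.986, 6.48 and 5.08 CPM in *panx1a*-/- libraries, the lowest of which rested on 17 counts. All TL controls were above all *panx1a*-/- libraries. The mean fell from 30.0 ± 12.4 CPM in TL to 4.18 ± 2.86 CPM (SD, 3 libraries each). The log2 fold change was −2.84 ± 0.61 (SE) with an adjusted p of 0.0316 in edgeR's test. The TL mean was 7.19 times the *panx1a*-/- mean, and 0.445% of all tested genes had a log2 fold change as low or lower.

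*pvalb8*, one of the genes named after oncomodulin, had 189, 252 and 184 CPM in TL controls and 23.0, 84.5 and 65.8 CPM in *panx1a*-/- libraries. Here the TL controls were close to each other, with the highest 1.37 times the lowest, and *panx1a*-/- replicate 1 stood lowest. The mean fell from 208 ± 38.0 CPM in TL to 57.8 ± 31.5 CPM (SD, 3 libraries each). The log2 fold change was −1.85 ± 0.44 (SE) with an adjusted p of 0.0344 in edgeR's test. TL control 1, which had the lowest values of its group for all 4 muscle forms and for *pvalb5*, was not the lowest for *pvalb8*. This library also had the highest share of reads outside genes among TL controls, 42.9% against 30.2% and 30.7%, and the part of that share in these values was not tested.

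*pvalb9*, the other gene named after oncomodulin, went the opposite way. It had 23.9, 23.9 and 18.6 CPM in TL controls and 35.1, 26.1 and 40.0 CPM in *panx1a*-/- libraries. Each *panx1a*-/- library was above each TL control, as in 23.4% of all tested genes. The means were 22.1 ± 3.07 and 33.8 ± 7.02 CPM (SD, n = 3 each), and the log2 fold change of 0.61 (standard error 0.20) reached an adjusted p of 0.0594 in edgeR's test. It passed with DESeq2 (adjusted p = 0.0389) and with edgeR's exact test (adjusted p = 0.0426). As a ratio within each library, 7.88, 10.6 and 9.93 reads of *pvalb8* were counted per read of *pvalb9* in TL controls, and 0.655, 3.23 and 1.65 in *panx1a*-/- libraries.

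The neuronal forms *pvalb6* and *pvalb7* were listed at 0 counts in all 6 libraries. At these depths 0 counts allow a level of up to 3 counts, or between 0.155 and 0.209 CPM in a library. Of all genes listed, 887 (5.78%) had 0 counts everywhere. Among the Purkinje cell genes examined, *aldoca*, the zebrin II antigen, was also at 0 throughout, whereas *ca8*, a carbonic anhydrase-related protein of Purkinje cells, had 9.73 to 17.5 CPM in TL controls and 11.2 to 17.2 CPM in *panx1a*-/- libraries. *calm2a*, a calmodulin gene, was at 0 as well, while *calm2b* averaged 403 and 643 CPM. How the annotation used for counting handled the rows listed at 0 is not given in the sources used here, so no statement on these neuronal forms follows from the counts. The comparison of muscle and neuronal forms thus lacks values for *pvalb6* and *pvalb7*. No cell type was measured for *pvalb5*, *pvalb8* and *pvalb9*, so they are not taken as neuronal here.

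The muscle forms took a large share of all reads, which were almost entirely on *pvalb1* and *pvalb2*. All parvalbumins together held 3.30%, 7.20% and 5.34% of the reads on genes in TL controls 1, 2 and 3, and 2.06%, 2.198% and 1.40% in *panx1a*-/- libraries 1, 2 and 3. Counting error, as a 95% Wilson interval, was no wider than ± 0.0109 percentage points. The other forms held 0.0224% to 0.0245% of the reads in TL controls and 0.00648% to 0.0124% in *panx1a*-/- libraries. These are shares of reads, and no transcript lengths were used to turn them into shares of molecules. The balance of *pvalb1* and *pvalb2* also differed between the genotypes, with 2.32, 1.44 and 2.099 reads of *pvalb2* per read of *pvalb1* in TL controls and 0.982, 1.29 and 0.647 in *panx1a*-/- libraries. The groups did not overlap in this ratio, and transcript length drops out of the comparison between libraries. The difference in the ratio was not tested. The levels of single genes did not overlap either in 47.5% of all tested genes, and ratios of other gene pairs were not examined for this.

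A list of fast muscle contractile and metabolic genes gives the surroundings of the muscle forms. Of its 38 tested genes, 16 were downregulated (42.1%, against 11.8% of all tested genes), and the median log2 fold change was −1.19. No gene of the list was called upregulated in edgeR's quasi-likelihood test, with DESeq2, edgeR's exact test or limma-voom, and 1 was below 0.05 without adjustment. *myl1*, a fast myosin light chain gene, had the lowest log2 fold change of the called genes, at −2.44 (adjusted p = 0.0351), followed by *tpma*, which encodes alpha-tropomyosin (−2.16, adjusted p = 0.0325), and *tnni2b.2*, a fast troponin I gene (−2.01, adjusted p = 0.0279, all from edgeR's quasi-likelihood test). The fast myosin heavy chain gene *myhz1.1* had 1942 ± 278 CPM in TL controls and 1974 ± 825 CPM in *panx1a*-/- larvae (SD, 3 libraries each), with a log2 fold change of 0.02 (adjusted p = 0.959). The related genes *myhz1.2* (−0.36, adjusted p = 0.320) and *myhz2* (0.63, adjusted p = 0.143, edgeR's quasi-likelihood test) were not called either. *myhz2* was higher in each *panx1a*-/- library than in any TL control, as were 23.4% of all tested genes. Of 6 skeletal muscle markers, all also on this list, 1 was downregulated, against 11.8% of all tested genes. Their summed level was 23384 to 64660 CPM in TL controls and 12355 to 25772 CPM in *panx1a*-/- libraries, so the genotypes overlapped. Without TL control 1, 28 genes of the list were downregulated (17.9% of all genes). Without TL control 2, TL control 3, *panx1a*-/- replicate 1 or *panx1a*-/- replicate 3, 0 were. Over all genes these 4 fits called 0.805%, 0.0155%, 0.108% and 0.00771% downregulated, in that order.

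Set against the reads of that list in the same library, the difference in the muscle forms was smaller. The list itself was lower in each *panx1a*-/- library than in any TL control, so a smaller difference was largely fixed in advance. Per 100 reads of the fast muscle list, 54.4, 58.6 and 46.7 reads fell on *pvalb1* to *pvalb4* in TL controls and 35.1, 48.2 and 46.6 in *panx1a*-/- libraries, so that the genotypes overlapped. *pvalb4* kept nearly the same ratio in all 6 libraries, with 28.9, 32.4 and 29.1 reads per 10000 reads of the list in TL controls and 28.8, 30.2 and 27.6 in *panx1a*-/- libraries. *pvalb1* had 1631, 2391 and 1498 reads per 10000 in TL controls and 1755, 2089 and 2811 in *panx1a*-/- libraries, and the groups overlapped. *pvalb3* had 0.506, 1.04 and 1.02 reads per 10000 in TL controls and 0.845, 0.632 and 1.00 in *panx1a*-/- libraries, which overlapped as well. *pvalb2* differed from these forms, with 3776, 3434 and 3144 reads per 10000 in TL controls and 1724, 2697 and 1818 in *panx1a*-/- libraries, all lower. Genes within the list also differed from its sum: *tpma* had a log2 fold change of −2.16, close to the −2.14 of *pvalb2*, and *myhz1.1* had 0.02. The summed level of the list ranged from 57162 to 159079 CPM in TL controls and from 27128 to 53511 CPM in *panx1a*-/- libraries, and TL control 2, the highest library for all 4 muscle forms, was also the highest for the list.

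**Figure D3:**
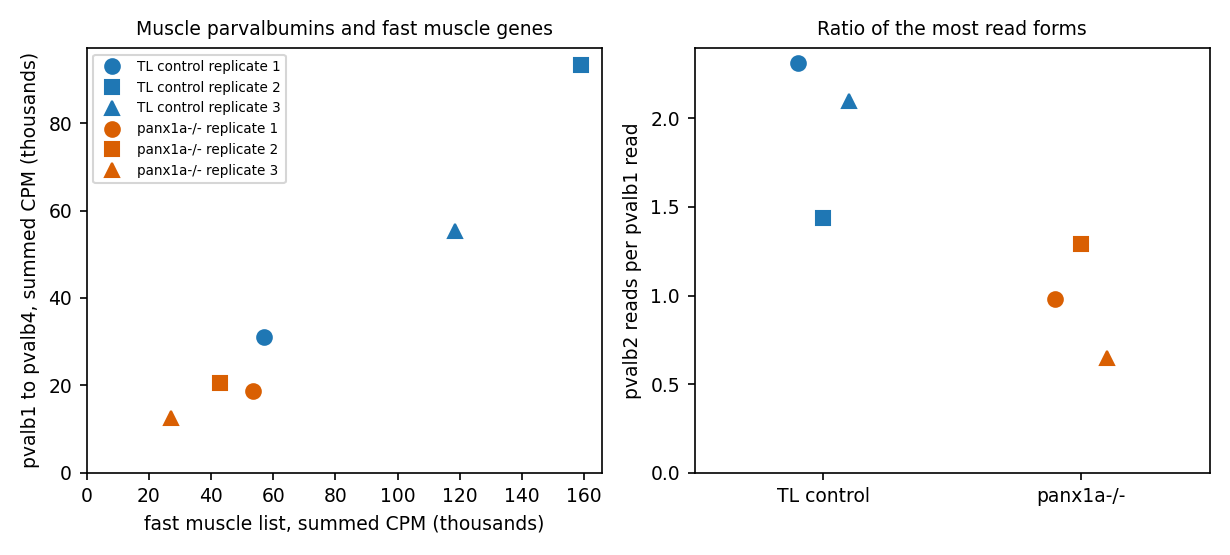
Left, summed CPM of *pvalb1* to *pvalb4* (y axis) against the summed CPM of the fast muscle list (x axis) in each of the 6 libraries. Right, reads of *pvalb2* per read of *pvalb1* in each library by genotype. The libraries fall in the same order on both axes except *panx1a*-/- replicates 1 and 2, which change places, and the ratio was at least 1.44 in TL controls and at most 1.29 in *panx1a*-/- libraries.

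Of 18 tested slow muscle genes, 3 were downregulated (16.7%, near the 11.8% of all tested genes) and 2 upregulated (11.1%, near the 9.88% of all tested genes), with a median log2 fold change of −0.51. DESeq2 and edgeR's exact test each called 6 downregulated (14.5% and 17.5% of all genes) and 2 upregulated (14.2% and 13.3% of all genes). The called genes with the largest change were *actn2b*, an alpha-actinin gene, which rose by 2.30 on the log2 scale (adjusted p = 0.0279), and the troponin I genes *tnni1c* (−1.66, adjusted p = 0.0308) and *tnni1d* (−1.26, adjusted p = 0.0380, edgeR's quasi-likelihood test). Without TL control 2, TL control 3, *panx1a*-/- replicate 1 or *panx1a*-/- replicate 3, 0 genes of the list passed. Over all genes these 4 fits called 0.0233% to 1.1%. *smyhc1*, the slow myosin heavy chain gene, had 97.6 and 104 CPM on average and a log2 fold change of 0.09 (adjusted p = 0.884).

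Of 27 tested genes of excitation-contraction coupling and calcium stores, 5 were downregulated (18.5%, against 11.8% of all tested genes) and 3 upregulated (11.1%, near the 9.88% of all tested genes), with a median log2 fold change of −0.52. The downregulated genes were *jph2* (−2.54, adjusted p = 0.0264) and *jph1b*, which encode junctophilins that hold the sarcoplasmic reticulum to the surface membrane, *cacng6a*, a calcium channel subunit gene (−1.75, adjusted p = 0.0279), *casq1b*, which encodes the calcium store protein calsequestrin (−1.56, adjusted p = 0.0356), and *tmem38a*, a cation channel gene of the sarcoplasmic reticulum. The upregulated genes were the calmodulin genes *calm1a*, *calm1b* and *calm3a*, which are active in most cell types and not particular to muscle. *ryr1b*, the calcium release channel of fast fibres, had 59.6 ± 9.48 and 61.3 ± 5.90 CPM (SD, n = 3 each) and a log2 fold change of 0.04 (adjusted p = 0.870). *atp2a1*, a gene of the sarcoplasmic reticulum calcium pump that works beside the parvalbumins, had 768, 2618 and 2679 CPM in TL controls and 1010, 635 and 380 CPM in *panx1a*-/- libraries, with a log2 fold change of −1.58 (adjusted p = 0.0662). *atp2a1l*, another pump gene of the list with more reads, had 4075 ± 223 and 3922 ± 596 CPM (SD, n = 3 each). Its log2 fold change was −0.06 (adjusted p = 0.855, edgeR's quasi-likelihood test), so the pump genes did not share a fall. In the 4 fits without TL control 2, TL control 3, *panx1a*-/- replicate 1 or *panx1a*-/- replicate 3, 0 to 1 gene of the list passed. The same fits called 0.0233% to 1.1% of all genes. *casq1a* differed by −0.52 on the log2 scale (adjusted p = 0.146).

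Of 29 tested genes of other neuronal EF-hand proteins, 4 were upregulated (13.8%, against 9.88% of all tested genes), 25 were not called, and the median log2 fold change was 0.45. None was downregulated in edgeR's quasi-likelihood test or with limma-voom, 2 were below 0.05 without adjustment in that direction, and DESeq2 and edgeR's exact test each called 1. The upward count was 9 with DESeq2 and with edgeR's exact test (14.2% and 13.3% of all genes). It was 5 with limma-voom (10.4% of all genes) and 14 with replicate number as a block (13.6%). With library size as the only scaling it was 4 (8.02%), and with upper-quartile scaling 3 (6.83%). Without adjustment, 13 genes were below 0.05 upward in the quasi-likelihood test, against 20.0% of all genes. Among the called genes, the largest changes were in *cabp5b* (1.85, adjusted p = 0.0351) and *cabp2a* (1.80, adjusted p = 0.0262), which encode calcium-binding proteins of the retina and of ribbon synapses, and in *rcvrn2*, a recoverin gene of photoreceptors (1.18, adjusted p = 0.0380). *cabp5a* was called too (1.07, adjusted p = 0.0459, edgeR's quasi-likelihood test). Of 5 photoreceptor markers, 4 were upregulated, against 9.88% of all tested genes. Their summed level was 944 to 1268 CPM in TL controls and 1348 to 3191 CPM in *panx1a*-/- libraries, and its part in these calls was not tested. The calretinin genes *calb2a* and *calb2b*, neuronal calcium buffers like the parvalbumins, had log2 fold changes of 0.75 (adjusted p = 0.102) and 0.96 (adjusted p = 0.0749), with overlapping genotypes. Upregulated genes of the list numbered 13 without TL control 1 (18.5% of all genes) and 10 without *panx1a*-/- replicate 2 (12.2% of all genes). They numbered 0 without any of the other 4 libraries, where at most 0.294% of all genes were upregulated. *calb1* and *ryr1a* had no row under these symbols among the genes listed, so they have no values here.

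Among 27 tested genes of Purkinje cells and inhibitory neurons, 4 were upregulated (14.8%, against 9.88% of all tested genes) and the median log2 fold change was 0.22. The upward count was 9 with DESeq2 and with edgeR's exact test (14.2% and 13.3% of all genes). It was 6 with limma-voom (10.4% of all genes) and 10 with replicate number as a block (13.6%). With library size as the only scaling it was 2 (8.02%), and with upper-quartile scaling 3 (6.83%). Without adjustment, 11 genes were below 0.05 upward in the quasi-likelihood test, against 20.0% of all genes. Downregulated genes numbered 0 in edgeR's quasi-likelihood test, in DESeq2 and in limma-voom, 1 in edgeR's exact test, and 1 without adjustment in the quasi-likelihood test. Among the called genes, *slc6a1a*, a GABA transporter gene, had the largest change (1.83, adjusted p = 0.0438), followed by the calcium channel gene *cacna1ab* (1.13, adjusted p = 0.0422) and the transcription factor gene *lhx1a* (1.09, adjusted p = 0.0443). Upregulated genes numbered 10 without TL control 1 (18.5% of all genes) and 8 without *panx1a*-/- replicate 2 (12.2% of all genes). They numbered 0 without any of the other 4 libraries, where at most 0.294% of all genes were upregulated. *ca8* had a difference of 0.11 on the log2 scale (adjusted p = 0.773). The summed level of 6 neuronal marker genes was 1809 to 3789 CPM in TL controls and 4116 to 6131 CPM in *panx1a*-/- libraries, and its part in these list counts was not tested.

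Of 21 tested hair cell genes, 4 were downregulated and 4 upregulated (19.0% each way, against 11.8% and 9.88% of all tested genes), with a median log2 fold change of −0.37. The called genes with the largest change were *s100t* (−2.26, adjusted p = 0.0325), *lhfpl5b* (−1.99, adjusted p = 0.0279) and *s100s* (−1.77, adjusted p = 0.0317), which encode calcium-binding proteins of the S100 family (*s100s* and *s100t*) and a part of the mechanotransduction complex (*lhfpl5b*). *s100t* had 78.1, 120 and 86.2 CPM in TL controls and 6.55, 30.8 and 22.0 CPM in *panx1a*-/- libraries. As for both *pvalb5* and *pvalb8*, *panx1a*-/- replicate 1 was lowest and TL control 2 highest. How many of all genes had this order was not counted, and TL control 2 was also highest for all 4 muscle forms. The 3 genes nearest to *pvalb8* in pattern, given below, did not include *s100t*. The upregulated genes included *otofa*, which encodes the synaptic calcium sensor otoferlin (1.13, adjusted p = 0.0371), and *tmc1*, a mechanotransduction channel gene (1.54, adjusted p = 0.0279), all from edgeR's quasi-likelihood test. Without TL control 2, TL control 3, *panx1a*-/- replicate 1 or *panx1a*-/- replicate 3, 0 genes of the list were downregulated and 0 to 2 upregulated. Of all genes, 0.0233% to 1.1% were called in these 4 fits. The summed level of the 4 hair cell markers listed was 117 to 167 CPM in TL controls and 73.9 to 127 CPM in *panx1a*-/- libraries, with 2 of them upregulated and 1 downregulated, and their part in the result for *pvalb8* was not tested.

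**Figure D4:**
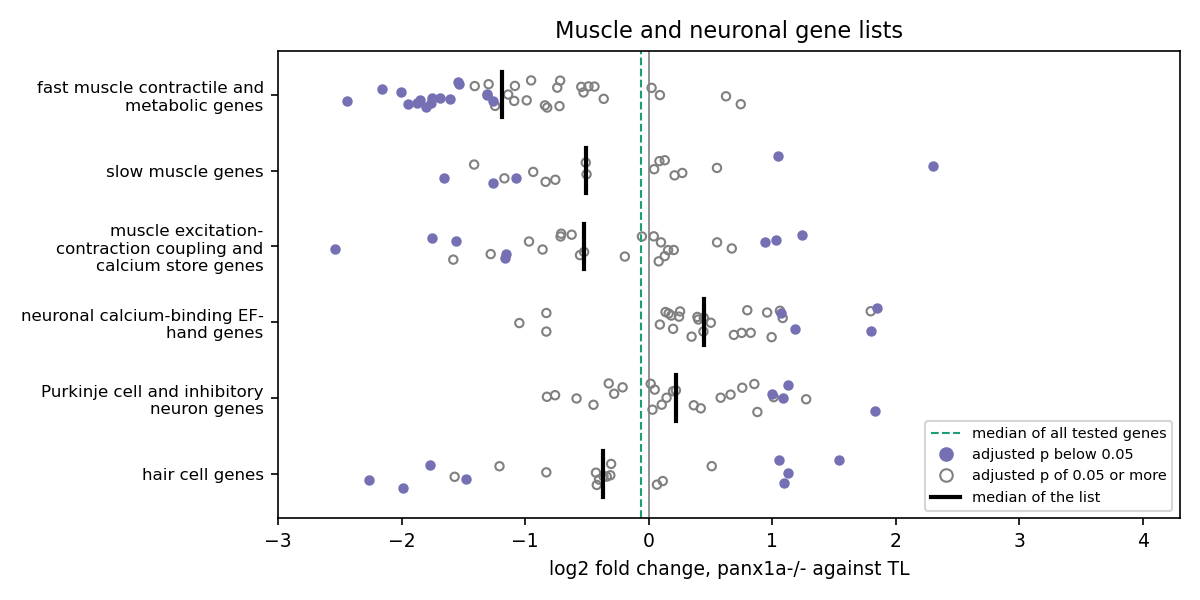
Log2 fold change of *panx1a*-/- against TL (x axis) of each tested gene in 6 lists, with filled points where the adjusted p-value was below 0.05, a black bar at each list's median and a dashed line at the median of all tested genes. The fast muscle genes lie mostly left of 0, with a median of −1.19, and the neuronal EF-hand genes mostly right of it, with a median of 0.45.

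Position gave a further grouping that the symbols did not use. By gene order in RefSeq's GRCz12tu annotation, *pvalb8*, *pvalb4*, *pvalb1* and *pvalb5* follow each other with no other protein-coding gene between them, and so do *pvalb9*, *pvalb3* and *pvalb2* on another chromosome. *pvalb6* and *pvalb7* each stand apart from these groups. All 4 genes of the first group had log2 fold changes between −2.84 and −1.33. In the second group *pvalb3* and *pvalb2* had −1.66 and −2.14, and their neighbour *pvalb9* had 0.61. The nearest genes on either side of the first group, *aimp2* and *lmtk2*, had log2 fold changes of −0.60 (adjusted p = 0.0761) and −0.50 (adjusted p = 0.105), and *ccz1*, next to *pvalb9*, had 0.21 (adjusted p = 0.363). On the far side of *pvalb2*, *bhlha15* was too low to be tested, and *tecpr1a* had no matching row among the genes listed. Beyond them, *baiap2l1a* (−1.61, adjusted p = 0.0401) and *tmem130* (−1.19, adjusted p = 0.0304, edgeR's quasi-likelihood test) were downregulated, as were 11.8% of all tested genes. This side is thus described farther out than the others.

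The patterns over the 6 libraries were also compared between genes. Likeness was measured as the root mean square difference of log2 CPM after centring each gene on its own mean, over the 6 libraries and 11239 genes. This measure rests on the same values as the log2 fold changes and is not independent of them, so near genes tend to have similar log2 fold changes. The genes nearest to *pvalb4* were *myoz1b* (0.0969), *ckma* (0.0997) and *cacng1a* (0.124), which encode a Z-disc protein, the muscle creatine kinase and a subunit of the muscle calcium channel. Nearest to *pvalb2* were *tpma* (0.139), *rab12* (0.149) and *cast* (0.163), and nearest to *pvalb3* were *npas2*, *hspb8* and *acta1b* (0.244 to 0.251), the last of them a skeletal actin gene. *pvalb1* was nearest to *c3a.3*, a complement gene, *etnppl* and *upp2* (0.131 to 0.188), none of which is on the muscle lists.

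*pvalb8* was nearest to *tlcd1*, *fut9d* and *icn2* (0.106 to 0.127), and *pvalb5* to *anxa5a*, an annexin gene, *krt97*, a keratin gene, and *zgc:136930* (0.239 to 0.262). Epidermal markers were also lower in *panx1a*-/- larvae, with 5 of 5 downregulated, against 11.8% of all tested genes. Their summed level was 15855 to 40002 CPM in TL controls and 2020 to 6311 CPM in *panx1a*-/- libraries, and their part in the results for *pvalb5* and *pvalb8* was not tested. A fall was not particular to the epidermis. Of 4 exocrine pancreas markers 3 were downregulated, with summed levels of 1163 to 6987 CPM in TL controls and 518 to 663 CPM in *panx1a*-/- libraries. Of 4 liver markers 0 were downregulated, and of 5 photoreceptor markers 4 were upregulated (9.88% of all tested genes). *pvalb9* was nearest to *smarcb1b*, *waslb* and *tmem97* (0.0564 to 0.0708). Within the family, the pair *pvalb1* and *pvalb4* differed least (0.320) and the pair *pvalb5* and *pvalb9* most (2.08).

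**Figure D5:**
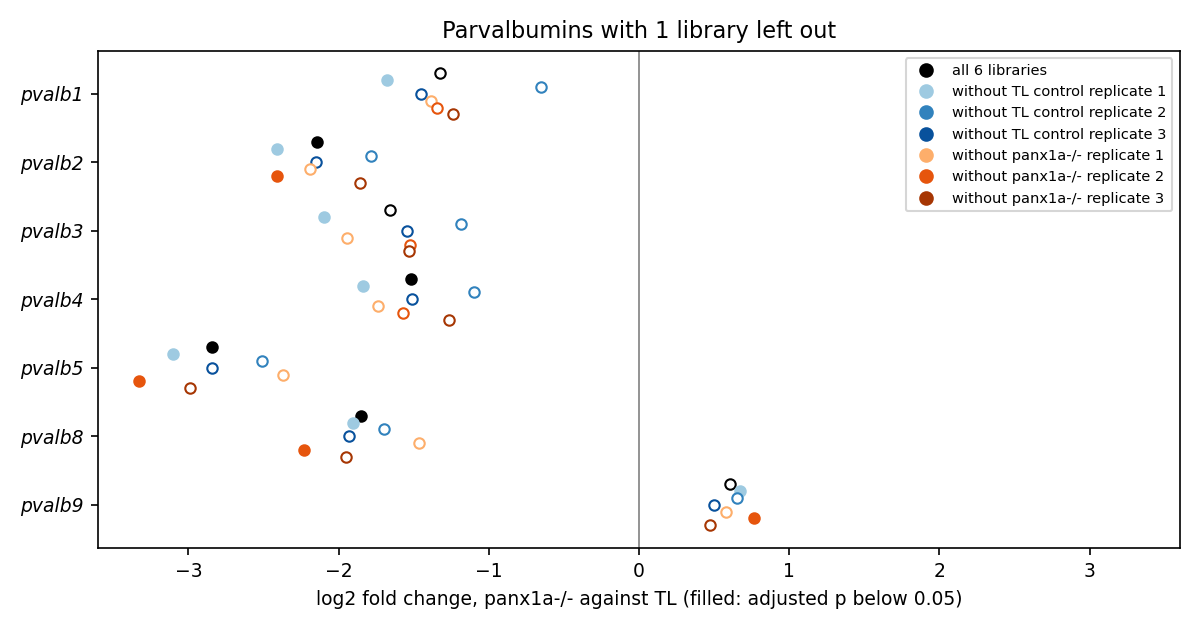
Log2 fold change of each tested parvalbumin (x axis) in the fit of all 6 libraries and in the 6 fits with 1 library left out, filled where the adjusted p-value was below 0.05. No gene changed sign, *pvalb1* moved most toward 0 without TL control replicate 2 (−0.65), and all points are open in 4 of the 6 fits.

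With 1 library left out, each tested parvalbumin kept the sign of its log2 fold change. For *pvalb2*, *pvalb4*, *pvalb5*, *pvalb8* and *pvalb9*, whose genotypes did not overlap, this was all but fixed in advance. *pvalb2* stayed between −2.41 and −1.78, *pvalb5* between −3.33 and −2.37 and *pvalb8* between −2.23 and −1.47, each called in 2 of the 6 fits, those without TL control 1 or *panx1a*-/- replicate 2. *pvalb4* stayed between −1.84 and −1.10 and was called only without TL control 1. *pvalb9* stayed between 0.47 and 0.77 and was called in the same 2 fits as *pvalb2*.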

How the data were processed

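For each library, the authors deposited whole-number counts per gene symbol with no normalization, from paired reads of a directional kit. The submitters' processing notes name Trim Galore 0.4.4, TopHat2 2.0.11, HTSeq 0.6.1p2 and the build danRer11. The annotation and strand setting are not given in the sources used here. Reads aligned to several places (11.9% to 21.3% of the reads in the files) were not counted on genes, so parvalbumin copies with shared sequence may be undercounted. The 5 rows of unassigned reads were left out of library sizes.

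Tests used edgeR 4.0.16, DESeq2 1.42.0 and limma 3.58.1 under R 4.3.3. Python (3.11.15) and scipy (1.17.1) served for summaries. Genes passing edgeR's default filter on low counts (12797) were normalized by TMM and tested with the robust quasi-likelihood test with genotype as the only factor, called at an adjusted p-value below 0.05. Standard errors are the log2 fold change divided by the square root of F. The biological coefficient of variation was 0.254. The fit was tested on simulated counts. Libraries of a genotype differed by more than sampling noise and each was kept.

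The parvalbumins and the gene lists were chosen with earlier results of these data known. Named genes were the parvalbumins, the 3 called genes with the largest change in each list, 10 calcium and Purkinje cell genes to be given whatever their result, and the 3 genes most like each tested parvalbumin. Of the calcium and Purkinje cell genes, *calb1* and *ryr1a* had no row. Further list genes and flanking genes were named after their values were seen. Alternatives were other tests, scalings and filters, a replicate block, each library left out in turn and, chosen after seeing the data, the share of reads outside genes as a covariate. No sequences were printed, as none came with the reference used here.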

Additional observations from a re-analysis of the deposited data

Results flagged for a closer look

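Reads matching no gene feature were not counted on genes, and their share entered only the fit with that share as a covariate. They were a larger share of uniquely aligned reads in each *panx1a*-/- library (lowest 48.4%) than in any TL control (highest 42.9%).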

How the results depend on the processing

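Across the other tests, scalings and filters, each tested parvalbumin kept the sign of its log2 fold change. DESeq2 (−1.27, −1.61, 0.66) and edgeR's exact test (−1.33, −1.66, 0.61) also called *pvalb1*, *pvalb3* and *pvalb9*, giving 1 upregulated member each. *pvalb4* lost its call with library size only (−1.22), a scaling that moved the median of all genes to 0.17, and with the replicate block (−1.45, adjusted p = 0.0608). The sources used here do not state that same-numbered libraries are paired. Across genes, same-numbered libraries deviated together with r = 0.117, 0.301 and 0.0780. Other pairs of a TL control and a *panx1a*-/- library had r from −0.214 to 0.139. Over all genes the block called 3882 genes, against 2770 without it. These values do not settle whether the number marks a pairing. With the share of reads outside genes as a covariate, chosen after seeing the data, the log2 fold changes were 0.47 (*pvalb1*), −0.34 (*pvalb2*), 0.96 (*pvalb3*), 0.47 (*pvalb4*), −1.79 (*pvalb5*), −1.60 (*pvalb8*) and 0.10 (*pvalb9*), with 0 members called. This share and genotype cannot be told apart with 6 libraries. With a library left out, log2 fold changes ranged from −1.68 to −0.65 (*pvalb1*), −2.41 to −1.78 (*pvalb2*), −2.10 to −1.18 (*pvalb3*), −1.84 to −1.10 (*pvalb4*), −3.33 to −2.37 (*pvalb5*), −2.23 to −1.47 (*pvalb8*) and 0.47 to 0.77 (*pvalb9*), with 0 to 6 members downregulated and 0 to 1 upregulated. Over the genes of all lists, 28 downregulated and 17 upregulated genes became 43 and 28 with DESeq2, 45 and 27 with edgeR's exact test, 35 upregulated with the block, 0 and 0 with the covariate, and 0 to 50 and 0 to 35 with a library left out. The share of all genes called in either direction moved too, from 21.6% to 28.7% with DESeq2, 30.8% with edgeR's exact test and 30.3% with the block. It was 0.00781% with the covariate and 0.0233% to 36.4% with a library left out.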
